A study of Mus musculus with 12 samples.

Results

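Potassium channel genes were taken as the protein-coding mouse genes of the GENCODE annotation whose symbol starts with Kcn. There were 94 of them among 21542 protein-coding genes with a transcript in the files. 77 encode pore-forming subunits and 17 encode auxiliary proteins. RNA was sequenced from the substantia nigra pars compacta (SNpc) of 12 mice, labelled male and 1 week old, with 1 library per mouse and 3 mice in each of 4 groups, so p-values measure the spread between mice. The mice were wild-type (WT) or *En1*+/-, in the SwissOF1 strain (OF1) or the C57Bl/6j strain (C57). *En1* encodes a homeobox transcription factor that dopaminergic neurons of the midbrain need. In *En1*+/- mice 1 copy of it is a null allele made by inserting lacZ, in every cell of the body, and the C57-*En1*+/- line was made by backcrossing OF1-*En1*+/- mice to C57 for over 10 generations. No mouse was treated, and the tissue was cut by laser from cresyl violet sections, so every cell type of the cut area gave RNA. The comparisons ask how channel transcripts differed between the strains, between the genotypes, and between libraries rich and poor in dopaminergic transcripts.

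Potassium channels let K+ leave cells and so set the resting potential, end action potentials and pace firing. Voltage-gated (Kv) channels open on depolarization, inward rectifiers (Kir) hold the resting potential and clear K+ in glia, calcium-activated (SK and BK) channels shape the afterhyperpolarization, and 2-pore-domain (K2P) channels carry leak. Dopaminergic neurons of the substantia nigra are known as slow pacemakers in which Kv4.3 (*Kcnd3*), SK3 (*Kcnn3*) and Girk2 (*Kcnj6*) shape the firing.

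The libraries held 13538864 to 30927714 estimated reads in OF1-WT and 13570749 to 28294254 in OF1-*En1*+/- mice. In C57 mice they held 61433970 to 168741283 in WT and 20030280 to 37754338 in *En1*+/-. Every C57-WT library was thus deeper than every library of the other groups. Depth therefore went with genotype in C57 mice and with strain in WT mice. Counts are given as normalized counts, that is, estimated reads per gene scaled for depth and composition to a common library size. The dopaminergic markers *Slc6a3*, *Nr4a2* and *Pitx3* were abundant in 2 libraries alone. *Slc6a3*, the dopamine transporter, was at 205403 in SW22 (OF1-*En1*+/-) and 350647 in C572S (C57-WT), and between 4.18 and 3230 in the other 10. The summed level of 14 dopaminergic markers was 8026 TPM (the deposited level per length) in SW22 and 12570 TPM in C572S, against 39.7 to 302 TPM in the other 10 libraries, where *Pitx3* was at 0 in 4 and *Foxa2* at 0 in 6. *Slc6a3*, *Pitx3* and *Foxa2* were thus scarce in those 10, but other markers of the list were not always lower there. *Foxa1* was at 1262 in SW31, 1133 in SWG and 1101 in C5743, against 386 in SW22 and 1249 in C572S. *Lmx1b* was at 618, 601 and 784 in the same libraries, against 179 in SW22 and 435 in C572S. *Ret* was at 5061 in C572, against 3509 in SW22 and 5788 in C572S. *En1* was at 691 in SW22, at 1071 in C572S and between 0 and 15.2 in the other 10, so its level did not check the genotype labels. C572 (C57-*En1*+/-) went against its male label, with *Xist* at 1330 and *Ddx3y* at 0, whereas the other 11 libraries had *Xist* at no more than 34.9 and *Ddx3y* at 749 or more. Where leaving out SW22, C572S or C572 ended a call of a Kcn gene or moved its fold change by over 1.5 times, the value without them is given. Values of other genes are given with all 12 libraries only.

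The pore of a potassium channel is lined by the selectivity filter, whose core is glycine-tyrosine-glycine or a close variant. In the canonical coding sequences of the GENCODE annotation on GRCm39, the in-frame letters GGNTANGGN or GGNTTNGGN, which encode that core with tyrosine, phenylalanine or leucine, were present in 77 of 77 pore-forming genes and in 0 of 17 auxiliary genes. Of 21751 protein-coding genes, 16.7% held such letters, so a match alone marks no channel. The filters of 6 channels on which the results turn are shown because they are the stretch these otherwise divergent genes share. Each window has 33 bases of the coding strand, from 5′ to 3′, with the core in capitals.
Kcnj10 (chr1:172196860-172196892, + strand): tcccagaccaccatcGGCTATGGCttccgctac
Kcnj6 (chr16:94633627-94633659, - strand): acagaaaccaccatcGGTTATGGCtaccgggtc
Kcnd3 (chr3:105367221-105367237 joined to chr3:105565927-105565942, + strand): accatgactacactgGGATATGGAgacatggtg
Kcna3 (chr3:106944918-106944950, + strand): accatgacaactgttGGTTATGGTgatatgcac
Kcnk6 (chr7:28931587-28931602 joined to chr7:28925276-28925292, - strand): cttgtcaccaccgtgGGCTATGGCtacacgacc
Kcnh6 (chr11:105909893-105909925, + strand): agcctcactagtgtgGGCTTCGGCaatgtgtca
All 6 windows are coding exon, and those of *Kcnd3* and *Kcnk6* run across an exon junction. *Kcnk6* is a 2-pore-domain channel, and its window shows 1 of its pore domains. The letters searched for had 1 match in *Kcnk6*, whereas 11 of 14 K2P genes had at least 2. *Kcnh6*, an ERG channel, has the phenylalanine form, and the other 5 have the tyrosine form.

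Transcripts of potassium channel genes were widely detected. Reads were found in all 12 libraries for 68 of the 94 genes, 77 passed the minimum mean of 10 normalized counts for testing (81.9%, against 70.6% of protein-coding genes), and *Kcnj1* and *Kcnmb3* had no reads. The 17 genes that were not tested included the renal and epithelial channel genes *Kcnj1*, *Kcnj13*, *Kcnk5* and *Kcne3*. Together the Kcn genes made up 735 ± 87.5 TPM (SD, n = 12), from 604 in SW7 to 878 in C5710. By group the sum was 673 ± 70.2 TPM for WT and 782 ± 47.2 for *En1*+/- OF1 mice, and 789 ± 105 for WT and 697 ± 90.9 for *En1*+/- C57 mice (SD, n = 3 each), and the ranges of mean ± SD overlapped between all 4 groups.

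Auxiliary subunits were prominent. They made up 37.4% of the Kcn TPM, and 8 of the 20 genes of highest mean TPM were auxiliary. The KChIP genes, whose calcium-binding products bring Kv4 channels to the membrane, held 23.6% of the Kcn TPM, more than any family of pores. *Kcnip1* had the highest mean level, 71.9 ± 32.5 TPM (SD, n = 12), followed among the KChIPs by *Kcnip3* (44.5 ± 13.4), *Kcnip4* (43.9 ± 26.5) and *Kcnip2* (13.3 ± 8.34). Of the Kv beta subunits, which bind Kv1 channels, *Kcnab2* was at 15.3 ± 4.59 TPM, *Kcnab3* at 13.6 ± 8.40 and *Kcnab1* at 11.7 ± 13.6. *Kcne5*, a KCNE subunit that inhibits Kv7.1 channels, was at 37.7 ± 10.9 TPM.

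Among the pores, K2P genes held 17.6% of the Kcn TPM. *Kcnk4* (TRAAK, a mechanosensitive leak channel) was at 61.3 ± 10.4 TPM and *Kcnk1* (TWIK-1, a weak leak channel) at 38.5 ± 14.0 TPM (SD, n = 12). The exons of *Kcnk4* overlap those of *Catsperz* on the same strand over 12.2% of their length. Kv1 genes were led by *Kcna6* (33.6 ± 11.4 TPM), with *Kcna3* at 9.88 ± 4.91 and *Kcna2* at 9.39 ± 3.17. The Kv3 genes of fast-spiking neurons were at 14.3 ± 5.39 TPM for *Kcnc4* and 10.5 ± 8.80 for *Kcnc1*, and *Kcnd2* (Kv4.2) was at 21.3 ± 4.65. *Kcnn1* (SK1) came between *Kcna6* and *Kcnd2*. *Kcnj10* (Kir4.1, the main inward rectifier of glia) was at 13.7 ± 11.8 and the sodium-activated channel *Kcnt1* at 9.96 ± 3.33. In this order of mean levels, neighbours differed by less than the larger of their SDs, except *Kcnk4* and *Kcnip3*, and *Kcnd2* and *Kcnab2*.

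**Figure D1:**
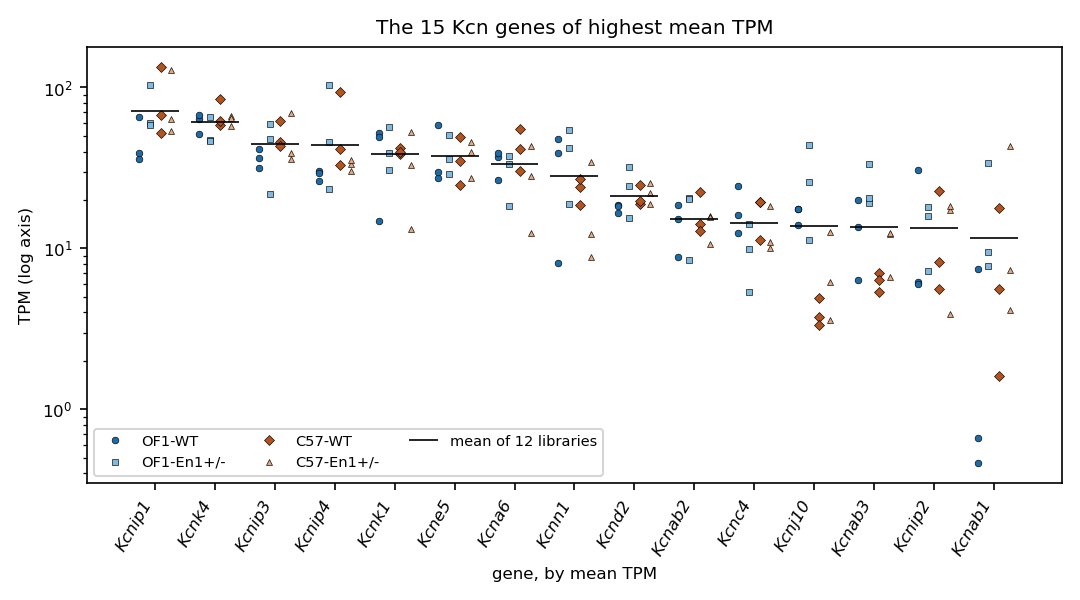
TPM of the 15 Kcn genes of highest mean level (log axis), with 1 point per library, marked by group, and a line at the mean of the 12 libraries. The levels run from *Kcnip1* at a mean of 71.9 TPM to *Kcnab1* at 11.7 TPM, and *Kcnj10* shows the C57-WT points below those of both OF1 groups.

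Between OF1 and C57 mice, *Kcnj10* was the channel gene that passed the edgeR test. *Kcnj10* (ENSMUSG00000044708, chr1:172168765-172201652, + strand) had normalized counts in OF1-WT mice of 2282, 2689 and 1942, and in OF1-*En1*+/- mice 6075 (SW21), 3288 and 1593. In C57-WT mice they were 544, 466 and 473, and in C57-*En1*+/- mice 923, 2087 (C572) and 491. All OF1 libraries lay above all C57 libraries other than C572, whose label is in doubt, and C572 was above 2 of the 6 OF1 libraries. Averaged over the genotypes, *Kcnj10* was higher in OF1 mice with a log2 fold change of 1.95 (SE 0.371; adjusted p = 0.0154, edgeR quasi-likelihood test, Benjamini-Hochberg over 18017 genes), a 3.85-fold difference. It was the 1 of 77 Kcn genes called in this comparison, in which edgeR called 2.01% of all genes.

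The call of *Kcnj10* was near the threshold. Without SW22 and C572S its log2 fold change was 1.96 with an adjusted p of 0.0823 (edgeR), and over the fits that left out 1 library the adjusted p ran from 0.00317 to 0.0550, being under 0.05 in 9 of 12. It was lost without C572S, C5743 or C5713 (adjusted p = 0.0526, 0.0545 and 0.0550, edgeR). Without C572 the log2 fold change was 2.32 (adjusted p = 0.00317, edgeR). Between WT mice alone the log2 fold change was 2.27 (SE 0.530; adjusted p = 0.0861 by edgeR and 0.000437 by DESeq2), and between *En1*+/- mice it was 1.63 (SE 0.519; adjusted p = 0.329 by edgeR and 0.0409 by DESeq2). Without C572 the log2 fold change between *En1*+/- mice was 2.38 by edgeR. The DESeq2 value between *En1*+/- mice was 0.119 without SW22 and C572S and 5.52e-05 without C572 (adjusted p).

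Kir4.1 is a channel of astrocytes and oligodendrocytes, and both kinds of marker varied between libraries. The summed TPM of 10 astrocyte markers was 1102 to 2402 in OF1 and 967 to 2338 in C57 mice, with 2 of 10 markers higher in OF1 and none called by edgeR. For 10 oligodendrocyte markers it was 377 to 2262 in OF1 and 200 to 3224 in C57 mice, with 8 of 10 higher in OF1 (median log2 fold change 0.44) and none called by edgeR. The genotypes differed in this: 10 of 10 oligodendrocyte markers were higher in OF1 between WT mice (median 1.13), but 3 of 10 between *En1*+/- mice (median -0.54). No astrocyte marker was at 0 in any library. Of the oligodendrocyte markers, *Opalin* was at 0 in 7 libraries, *Ermn* in 4 and *Mog* in 1. Both sums were highest in SW21 and C572, the libraries with the highest *Kcnj10* of their strain. The part of these cells in the *Kcnj10* difference was not tested, and in bulk tissue fewer cells of a type and less RNA per cell cannot be told apart.

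*Kcnab3* and *Kcnh6* had higher mean counts in OF1 mice too, but edgeR called neither. *Kcnab3*, a Kv beta subunit, was at 911, 374 and 732 in OF1-WT and 1727, 895 and 924 in OF1-*En1*+/- mice, against 221, 328 and 310 in C57-WT and 713, 795 and 349 in C57-*En1*+/- mice. Within each genotype all OF1 values of *Kcnab3* exceeded all C57 values. Averaged over the genotypes its log2 fold change was 1.10 (SE 0.289; adjusted p = 0.0975 by edgeR and 0.00850 by DESeq2). Its exons overlap the antisense gene *Kcnab3os* in part, and the libraries do not mark strand, so the reads of the 2 genes cannot be told apart there. *Kcnh6* (Kv11.2, an ERG channel) ranged from 231 to 379 in OF1 (median 309) and from 117 to 268 in C57 mice (median 171), so the strains overlapped. Its log2 fold change was 0.80 (SE 0.242; adjusted p = 0.189 by edgeR and 0.0356 by DESeq2). Without SW22 and C572S the DESeq2 call of *Kcnh6* was lost (log2 fold change 0.86, adjusted p = 0.114). DESeq2 called these 3 genes of 77 in the averaged comparison, where it called 3.62% of all genes.

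**Figure D2:**
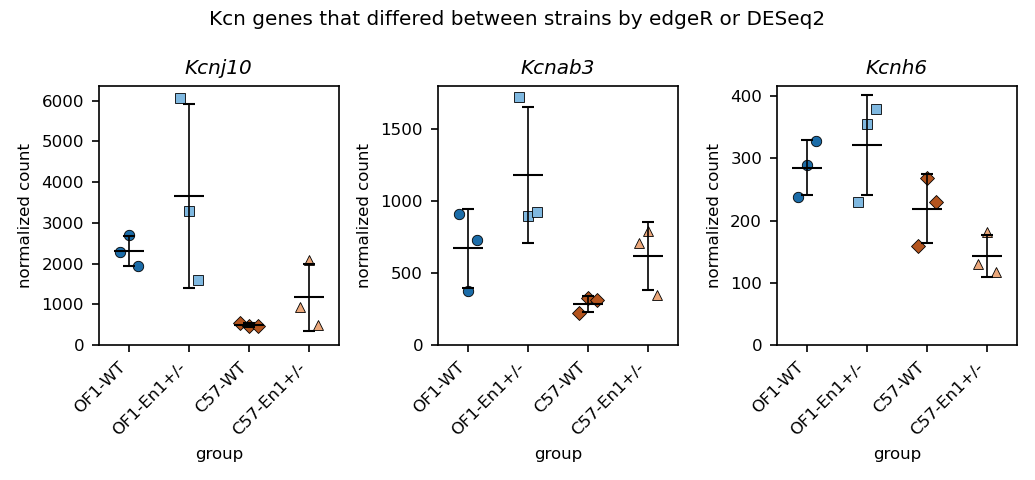
Normalized counts of *Kcnj10*, *Kcnab3* and *Kcnh6* in the 4 groups, with 1 point per library and the mean ± SD of the 3 libraries of each group (axes start at 0). *Kcnj10* lies between 466 and 544 in the 3 C57-WT libraries and between 1593 and 6075 in the 6 OF1 libraries, with C572 at 2087 among the C57-*En1*+/- mice.

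Of the 77 tested genes, 31 had a log2 fold change above 0 for OF1 against C57 averaged over the genotypes (46.8% of all genes did), and 6 had an unadjusted p under 0.05 (8.59% of all genes), with a median log2 fold change of -0.08 against -0.02 over all tested genes. None of the 77 separated the 6 OF1 from the 6 C57 libraries completely, where 2.39% of all genes did. Between WT mice, 3 genes lay higher in all OF1 mice (*Kcnab3*, *Kcnh8* and *Kcnj10*) and 3 lower (*Kcnh5*, *Kcnip4* and *Kcnn3*), that is 6 of 77 where 14.8% of all genes did not overlap. Between *En1*+/- mice, *Kcnab3*, *Kcne4* and *Kcnh6* lay higher and *Kcnma1* and *Kcnmb4* lower in all OF1 mice, where 13.2% of all genes did not overlap. Between WT mice edgeR called 0 Kcn genes, where it called 1.02% of all genes, 4 of 77 had an unadjusted p under 0.05 (8.54% of all genes) and 40 had a log2 fold change above 0 (49.3% of all genes). DESeq2 called 1 of them, *Kcnj10*, where it called 2.53% of all genes. Between *En1*+/- mice edgeR called 0 Kcn genes, where it called 0.966% of all genes, 7 of 77 had an unadjusted p under 0.05 (8.13% of all genes) and 25 had a log2 fold change above 0 (47.7% of all genes), with a median of -0.17 against -0.02 over all genes. DESeq2 called *Kcnh6* and *Kcnj10*, where it called 2.46% of all genes, and both calls were lost without SW22 and C572S (adjusted p = 0.232 for *Kcnh6*, DESeq2).

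SK3 (*Kcnn3*) illustrates how 1 library enters these comparisons. *Kcnn3* was at 120, 189 and 159 in OF1-WT and at 373, 1230 (C572S) and 245 in C57-WT mice, so the groups did not overlap also without C572S. The log2 fold change was -1.93 (SE 0.612; adjusted p = 0.304 by edgeR and 0.0546 by DESeq2), and without C572S it was -0.94 (adjusted p = 0.980, edgeR). In *En1*+/- mice it was at 377, 586 (SW22) and 252 in OF1 and at 569, 546 (C572) and 193 in C57, and the groups overlapped. *Kcnma1*, the BK channel pore, was at 1216, 1367 and 1398 in OF1-*En1*+/- and at 2069, 1612 (C572) and 3564 in C57-*En1*+/- mice, with a log2 fold change of -0.86 (SE 0.274; adjusted p = 0.325, edgeR). DESeq2 called *Kcnma1* lower in OF1-*En1*+/- mice when C572 was left out, an alternative chosen after seeing the data (log2 fold change -1.07, adjusted p = 0.0178).

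*Kcna3* and *Kcnk6* had lower counts in every *En1*+/- than in every WT library, but no channel gene passed the edgeR test for genotype. *Kcna3* (Kv1.3; ENSMUSG00000047959, chr3:106943485-106945386, + strand) was at 731, 471 and 485 in OF1-WT and 370, 272 and 190 in OF1-*En1*+/- mice, and at 555, 536 and 695 in C57-WT and 236, 181 (C572) and 280 in C57-*En1*+/- mice. *Kcnk6* (TWIK-2, a weak leak channel; ENSMUSG00000046410, chr7:28921346-28932035, - strand) was at 89.7, 43.3 and 131 in OF1-WT and 24.6, 41.9 and 20.3 in OF1-*En1*+/- mice, and at 72.7, 102 and 127 in C57-WT and 39.9, 24.0 (C572) and 12.0 in C57-*En1*+/- mice. These were the 2 of 77 genes in which the 6 *En1*+/- libraries lay below all 6 WT libraries, and none lay above, while 0.771% of all tested genes separated the genotypes in this way. For *Kcnk6* the gap was narrow, 41.9 in SW22 against 43.3 in SW7.

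Averaged over the strains, the log2 fold change of *Kcna3* was -1.16 (SE 0.221; adjusted p = 0.273 by edgeR and 0.000722 by DESeq2) and that of *Kcnk6* was -1.76 (SE 0.462; adjusted p = 0.335 by edgeR and 0.0256 by DESeq2). EdgeR called no gene of any kind in this comparison (0.0% of 18017, of which 11.4% had an unadjusted p under 0.05), and DESeq2 called 1.33%. Of the 77, 44 had a log2 fold change above 0, and so did 51.0% of all genes. Of the Kcn genes 12 of 77 had an unadjusted p under 0.05 by edgeR. Without C572, DESeq2 gave adjusted p-values of 0.00608 for *Kcna3* and 0.0906 for *Kcnk6*, and without SW22 and C572S it gave 0.00599 and 0.0329. Exons of *Kcna3* overlap the antisense lncRNA gene *Gm56792* over 27.6% of their length, and reads of the 2 cannot be told apart there.

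Markers of other cells moved with the genotype too. Of 10 subthalamic markers, 9 were lower in *En1*+/- mice averaged over the strains, with a median log2 fold change of -1.98 and none called by edgeR. Their summed TPM was 902 to 3147 in OF1-WT against 103 to 553 in OF1-*En1*+/-, and 368 to 2976 in C57-WT against 125 to 962 in C57-*En1*+/- mice. *Barhl1* was at 0 in 5 libraries, *Foxa1* in 4 and *Lmx1a* in 2, and of the GABAergic markers *Gata3* was at 0 in 5, *Tal1* in 3 and *Six3* in 1. Oligodendrocyte markers were higher in 9 of 10 (median 1.52), endothelial markers in 10 of 10 (median 0.57) and GABAergic markers in 7 of 8 (median 1.42). Microglial markers were higher in 9 of 10 (median 0.27) and oligodendrocyte precursor markers in 7 of 8 (median 0.20). None of these was called by edgeR. The summed GABAergic TPM overlapped between genotypes in both strains. It was 216 to 343 in OF1-WT and 309 to 744 in OF1-*En1*+/- mice. In C57 mice it was 228 to 441 in WT and 80.6 (C572) to 1005 in *En1*+/-. The endothelial sums overlapped too, at 115 to 176 in C57-WT and 163 to 249 in C57-*En1*+/- mice. The summed oligodendrocyte TPM was 377 to 838 in OF1-WT against 1148 to 2262 in OF1-*En1*+/- mice. In C57 mice it was 329, 705 and 231 in WT against 376, 3224 (C572) and 200 in *En1*+/-. Apart from C572, the C57-*En1*+/- sums thus did not exceed the C57-WT range. The part of all these cells in the values of *Kcna3* and *Kcnk6* was not tested.

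**Figure D3:**
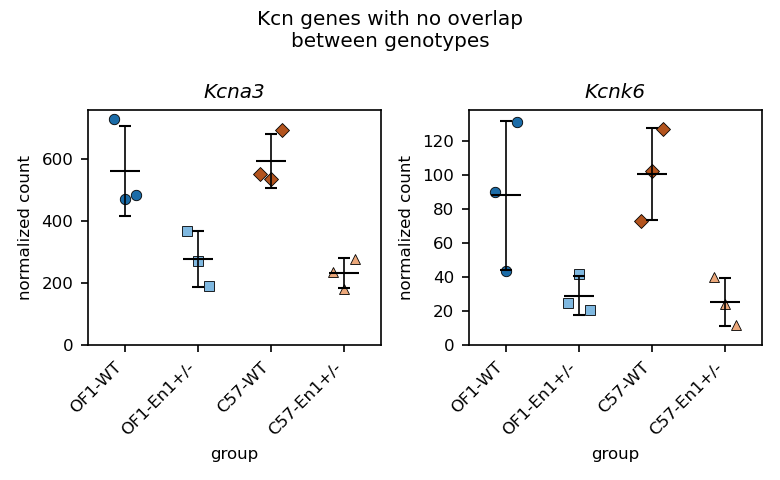
Normalized counts of *Kcna3* and *Kcnk6* in the 4 groups, with 1 point per library and the mean ± SD of the 3 libraries of each group (axes start at 0). *Kcna3* lies between 471 and 731 in the 6 WT and between 181 and 370 in the 6 *En1*+/- libraries, and *Kcnk6* between 43.3 and 131 and between 12.0 and 41.9.

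Within OF1 mice, 5 Kcn genes lay higher in all *En1*+/- than in all WT mice (*Kcna4*, *Kcnd3*, *Kcnj15*, *Kcnn3* and *Kcns3*) and 9 lower (*Kcna3*, *Kcna5*, *Kcnf1*, *Kcnh4*, *Kcnk10*, *Kcnk6*, *Kcns1* and *Kcnt1* among them), 14 of 77 where 15.7% of all genes did not overlap. The median log2 fold change of the 77 was -0.11, with 36 above 0 (49.0% of all genes), against -0.01 over all genes. EdgeR and DESeq2 called none of them, where they called 0.0% and 1.12% of all genes, and 13 of 77 had an unadjusted p under 0.05 by edgeR (9.29% of all genes). *Kcns3* (Kv9.3, a silent subunit that modifies Kv2 channels) was at 11.8, 72.5 and 0 in OF1-WT and at 1924, 679 (SW22) and 339 in OF1-*En1*+/- mice. *Kcna5* (Kv1.5) was at 142, 181 and 391 in OF1-WT and at 12.3, 86.0 and 43.9 in OF1-*En1*+/- mice, with a log2 fold change of -2.32 (SE 0.772; adjusted p = 0.448, edgeR), and of -3.06 without SW22 (adjusted p = 0.422, edgeR). *Kcns3* also exceeded its OF1-WT levels without SW22, and its log2 fold change was 5.07 (SE 1.81; adjusted p = 0.476, edgeR).

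Within C57 mice, *Kcnab3*, *Kcnd2*, *Kcnj8* and *Kcnk3* lay higher in all *En1*+/- than in all WT mice and *Kcna3*, *Kcne2*, *Kcnf1*, *Kcnj6*, *Kcnk6*, *Kcns2* and *Kcnt1* lower, 11 of 77 where 14.3% of all genes did not overlap. The median log2 fold change of the 77 was 0.21, with 50 above 0 (50.3% of all genes), but it was 0.0432 without SW22 and C572S. EdgeR called none of them and 0.0% of all genes, and 8 of 77 fell under an unadjusted p of 0.05 (8.89% of all genes). DESeq2 called *Kcna3* (log2 fold change -1.30, adjusted p = 0.0298) where it called 0.411% of all genes. The DESeq2 adjusted p of *Kcna3* in C57 mice was 0.282 without C572 and 0.160 without SW22 and C572S. *Kcnj8* (Kir6.1, the pore of the ATP-sensitive channel of pericytes and vascular muscle) was at 328, 288 and 273 in C57-WT and at 332, 743 (C572) and 606 in C57-*En1*+/- mice, with a log2 fold change of 0.97 (SE 0.322; adjusted p = 0.520, edgeR). The summed TPM of 10 mural cell markers was 69.7 to 113 in C57-WT and 135 to 174 in C57-*En1*+/- mice, with 9 of 10 above 0, none at 0 in any library and none called by edgeR. Its part in the value of *Kcnj8* was not tested. *Kcnt1* was lower in all *En1*+/- mice of each strain, at 1336, 1156 and 1170 against 958, 872 and 754 in OF1 and at 1060, 846 and 1352 against 690, 676 and 783 in C57 mice, but the pooled genotypes overlapped.

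No Kcn gene was called for a difference in the genotype effect between strains by edgeR or DESeq2, where edgeR called 0.0% and DESeq2 0.233% of all genes, and 5 of 77 had an unadjusted p under 0.05 by edgeR (7.22% of all genes). The interaction was above 0 for 46 of 77 (50.5% of all genes). None moved without overlap in opposite directions in the 2 strains, which 88 of 18017 genes did. The smallest p belonged to *Kcne2*, *Kcne4* and *Kcnk10*. *Kcne2* had few reads, and *Kcne4* (a KCNE subunit that inhibits Kv1 channels) rested on 1 library, SWB at 3505, with the other 11 between 0 and 123. *Kcnk10* (TREK-2, a heat- and stretch-sensitive leak channel) was at 1180, 1041 and 1634 in OF1-WT and 509 to 800 in OF1-*En1*+/- mice, and at 1105, 623 and 875 in C57-WT and 685, 682 and 1782 in C57-*En1*+/- mice. Its interaction, which is the C57 minus the OF1 log2 fold change, was 1.34 (SE 0.532; adjusted p = 0.655, edgeR).

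The channels that went with *Slc6a3* were *Kcnd3*, *Kcnip4*, *Kcnn3*, *Kcnj6* and *Kcne2*. These 5 of 77 genes (6.49%) were highest in SW22 among the OF1 libraries and in C572S among the C57 libraries, where 4.9% of all genes were, so as a share the family stood near the background. The comparison sets 1 library of each strain against the other 5 of that strain and has no test. *Kcnd3* (Kv4.3), the pore of the A-type current that paces dopaminergic neurons, was at 2514 in SW22 and 3981 in C572S. In the other OF1 libraries it was between 130 and 1240, and in the other C57 libraries between 351 and 1061. The ratio to the median of the other 5 was 2.67 in OF1 and 6.18 in C57. *Kcnn3*, the SK channel of these neurons, was at 586 in SW22 and 1230 in C572S, 3.09 and 3.30 times the medians of the others.

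*Kcnj6* (Girk2), through which D2 autoreceptors slow the firing, was at 519 in SW22 and 935 in C572S. The other OF1 libraries reached 371 and the other C57 libraries 336, so the ratio was 1.74 in OF1 and 5.80 in C57. *Kcnj6* was lowest in C572, at 12.5. Its exons overlap the antisense gene *Gm41505* over 12.5% of their length. *Kcne2* (MiRP1, a subunit of ERG and Kv7 channels) was at 37.2 in SW22 and 124 in C572S, with at most 9.99 in the other OF1 and 25.7 in the other C57 libraries, and at 0 in 5 of the 12. *Kcns3* was at 679 in SW22 and 1221 in C572S, 9.37 and 4.34 times the medians of the others, but SW21, with *Slc6a3* at 22.9, had more of it (1924).

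Of other channels of dopaminergic pacemaking, *Kcnip3* (KChIP3, a partner of Kv4.3) was at 3539 in SW22 and 3669 in C572S, but C572 had 5419, and SW21 3139. *Kcnj11* (Kir6.2, the pore of the neuronal ATP-sensitive channel) was at 346 and 463, with up to 386 and 396 in the other libraries of OF1 and C57. *Kcna4* (Kv1.4, also an A-type channel) was at 619 and 365, and SWB had 1031. These 3 genes were therefore not highest in both *Slc6a3*-rich libraries. SW22 is *En1*+/- and C572S is WT, so they enter the genotype comparison on opposite sides. *Kcnd3* had a log2 fold change of 1.80 for *En1*+/- against WT in OF1 and of -1.18 in C57 mice (SE 0.927 and 0.909; adjusted p = 0.581 and 0.733, edgeR). Without SW22 and C572S the log2 fold change was 1.28 in OF1 and 0.46 in C57 mice, so the direction in C57 mice turned (adjusted p = 0.648 and 0.935, edgeR).

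**Figure D4:**
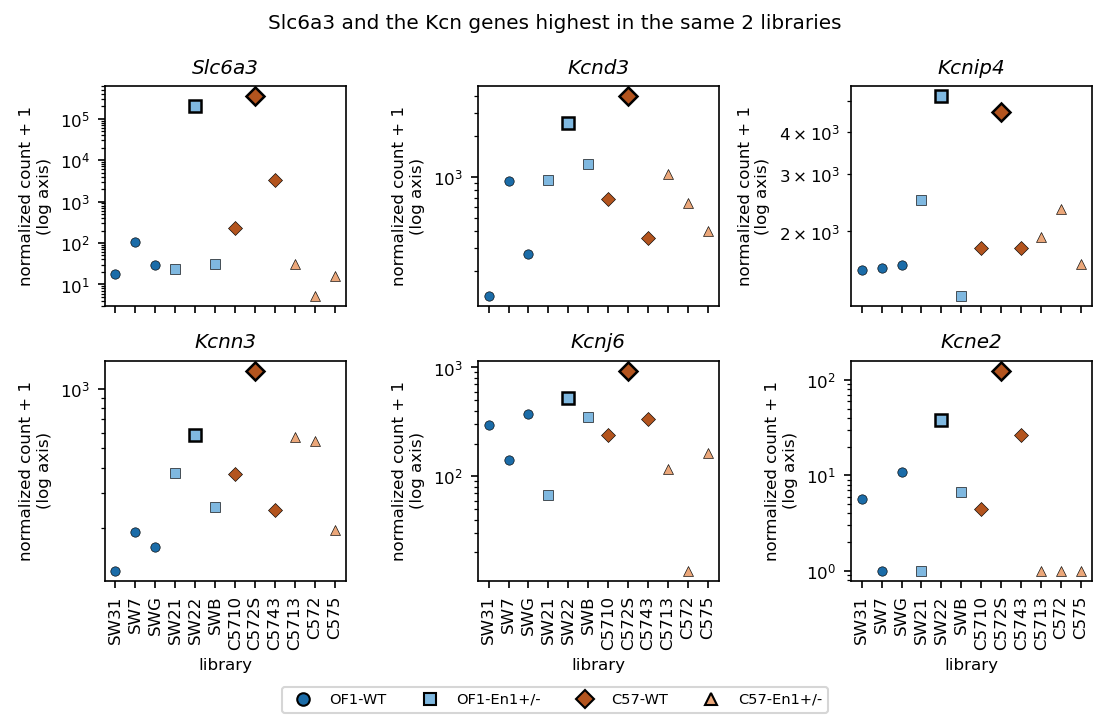
Normalized counts plus 1 (log axes) of *Slc6a3* and the 5 Kcn genes highest in SW22 among OF1 and in C572S among C57 libraries, with 1 point per library and these 2 libraries outlined. *Slc6a3* is at 205403 and 350647 there, and *Kcnd3* reaches 2514 and 3981 against 130 to 1240 elsewhere.

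*Kcnip4* (KChIP4), whose variants differ in their first exon and so in how they act on Kv4 channels, was at 5160 in SW22 and 4600 in C572S, 3.33 and 2.58 times the medians of the others. The highest other values were 2493 (SW21) and 2338 (C572). The variants had unequal shares of this. Kcnip4-206 had 38.3 TPM in SW22 and 46.9 in C572S, against a median of 3.01 and a range of 0.173 to 22.3 in the other 10 libraries, of which SW21 (22.3) and C572 (20.3) were highest. Kcnip4-204 had 24.2 and 27.8 TPM, against a median of 13.4 and a highest value of 27.2. Kcnip4-208 had 27.0 and 14.8 TPM (median 5.24 in the other 10, 1 of which exceeded C572S), and Kcnip4-201 had 11.8 and 2.73 (median 5.24, highest 10.1). Thus 38.6% of the *Kcnip4* reads of SW22 and 51.9% of those of C572S were assigned to Kcnip4-206, against a median of 12.1% and a highest share of 58.6% in the others. The variants share most of their sequence, and the split between them is an estimate by Salmon.
The first 30 coding bases tell these 4 variants apart from each other and are shown for that reason, 5′ to 3′ on the - strand of GRCm39 with the start codon in capitals.
Kcnip4-206 (chr5:49442653-49442682): ATGagtggctgtaggaaacggtgtaaacgt
Kcnip4-204 (chr5:48756847-48756876): ATGctgactctagagtgggagtcggaagga
Kcnip4-208 (chr5:49046778-49046807): ATGaacttggaggggcttgaaatgatagca
Kcnip4-201 (chr5:49682014-49682043): ATGaacgtgagaagggtggaaagcatctcg
Kcnip4-207 starts with the same bases as Kcnip4-201 and took up to 19.6% of the gene's reads in the other 10 libraries. All lie within the *Kcnip4* gene (chr5:48546844-49682249).

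A larger group was lowest in both *Slc6a3*-rich libraries. These were 11 of 77 Kcn genes (14.3%, where 4.33% of all genes were), among them *Kcnc1*, *Kcnd2*, *Kcnh7*, *Kcnh8*, *Kcnj5*, *Kcnj14*, *Kcnk3*, *Kcnn2* and *Kcns1*. *Kcnc1* (Kv3.1, of fast-spiking neurons) was at 363 in SW22 and 341 in C572S, 0.470 and 0.471 times the medians of the others of the strain. *Kcnd2* (Kv4.2), the close relative of *Kcnd3*, was at 1886 and 2235, 0.774 and 0.775 times the medians, so these 2 Kv4 genes went opposite ways. The remaining Kv4 gene, *Kcnd1*, was at 467 and 580, 1.19 and 1.02 times the medians. *Kcnn2* (SK2), the close relative of *Kcnn3*, was at 209 and 275, 0.671 and 0.668 times the medians. *Kcnk3* (TASK-1, an acid-sensitive leak channel) was at 76.7 and 48.6, 0.424 and 0.195 times. *Kcnj5* (Girk4) was at 51.2 and 0, with medians of 286 and 196 in the others, whereas its relative *Kcnj6* was highest in the same libraries. With thresholds on size in place of rank, 5 of 77 genes were over 2 times the median of the others in both libraries (3.03% of all genes) and 10 were under 0.5 times in both (3.49% of all genes).

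**Figure D5:**
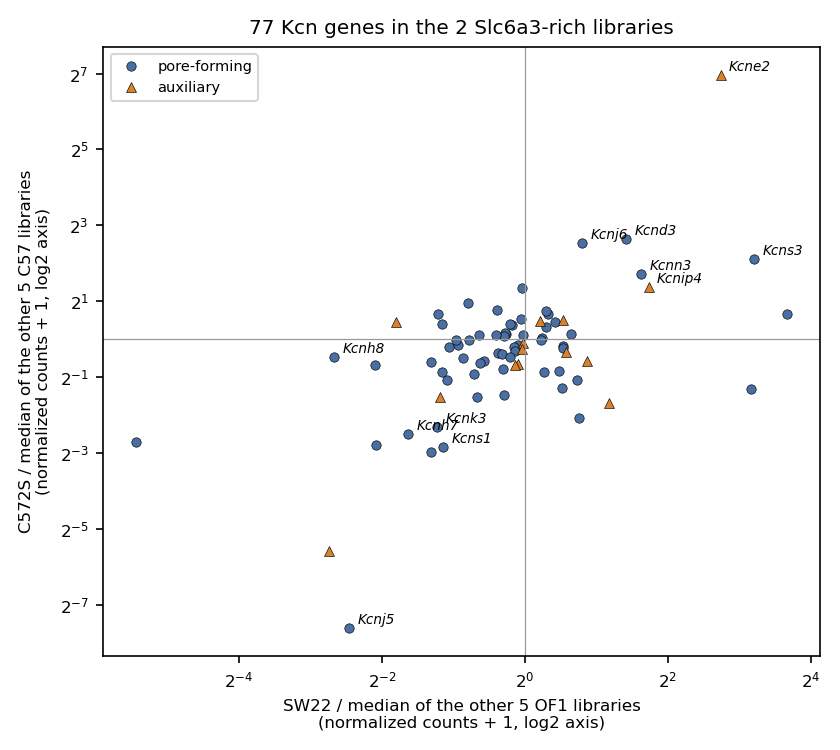
For each of the 77 tested Kcn genes, the normalized count plus 1 in SW22 over the median of the other 5 OF1 libraries (x) and that in C572S over the median of the other 5 C57 libraries (y), on log2 axes, with pore-forming genes as circles and auxiliary genes as triangles. The genes highest in both libraries sit at the upper right, and those lowest in both lie at the lower left among other genes, down to *Kcnj5*, which was at 0 in C572S. Names are given for the former, for *Kcns3* and for 5 of the latter.

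Over the other 10 libraries, in which *Slc6a3* ran from 4.18 to 3230, no Kcn gene was called as correlated with *Slc6a3* (77 genes, permutation test, Benjamini-Hochberg). Spearman's rho ran from -0.76 to 0.64 with a median of -0.05, and 3 genes had an unadjusted p under 0.05. These were *Kcnj2* (Kir2.1; rho = -0.76, r = -0.38), *Kcnab2* (rho = -0.73, r = -0.48) and *Kcna2* (Kv1.2; rho = -0.73, r = -0.54), each with an adjusted permutation p of 0.524 for rho and of 0.914, 0.800 and 0.780 for r. The highest rho were those of *Kcnh4* (0.64, r = 0.64), *Kcna5* (0.53, r = 0.46), *Kcns1* (0.49, r = 0.60) and *Kcne2* (0.47, r = 0.62). Without the 2 libraries farthest from the median of *Slc6a3*, C5743 and C5710, r of *Kcnh4* was 0.42, of *Kcnj2* -0.47, of *Kcnab2* -0.68 and of *Kcna2* -0.36. Of the 5 genes that were highest in SW22 and C572S, rho over the other 10 was 0.47 for *Kcne2*, 0.42 for *Kcnj6*, 0.24 for *Kcnd3*, -0.02 for *Kcnn3* and -0.19 for *Kcnip4*. For *Kcnd3*, *Kcnn3* and *Kcnip4* the relation to *Slc6a3* thus rests on SW22 and C572S. For *Kcne2* and *Kcnj6* it was positive in the other 10 too, but not called, and rho was 0.22 and 0.33 without C5743 and C5710. SW22 and C572S stand apart from the rest, and no r over all 12 libraries is given. After centring within strain no gene was called either, and the highest rho was that of *Kcnj6* (0.68).

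Other channels peaked in 1 library. *Kcne4* in SWB was 28.4 times its next value. C572, the library with the doubtful label, had the highest *Kcnk9* (TASK-3, 6701, next 2667 in SWG), *Kcnj14* (Kir2.4, 881, next 202) and *Kcnab1* (4062, next 2708 in SWB). SWB also had the highest *Kcnj9* (Girk3, 2073, next 913). Within groups the median coefficient of variation of the 77 genes was 41.5% for WT and 45.3% for *En1*+/- OF1 mice, against 31.3% and 28.1% over all tested genes, and 32.4% for WT and 51.0% for *En1*+/- C57 mice, against 26.4% and 32.7%. *Kcnt1* and *Kcnd2* varied least, with a median coefficient over the groups of 10.0% and 11.4%.

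Of 31 partner genes, 29 were tested and edgeR called none in any comparison, where it called 0.0% to 2.01% of all genes. The 31 included Na+/K+ pumps, accessory and anchoring proteins of Kv and BK channels, HCN channels, chloride cotransporters, sulfonylurea receptors and receptors that open Girk channels. Among the most abundant were *Atp1b1* (498 TPM), *Gabbr1* (150), *Atp1b3* (124), *Dpp6* (89.4) and *Tmem175* (74.0), which were measured in every library. DESeq2 called *Slc12a5* (KCC2, the neuronal K+-Cl- cotransporter) lower in OF1-*En1*+/- mice, at 3405, 2667 and 2907 against 5314, 4791 and 5722 in OF1-WT (log2 fold change -0.81, SE 0.185; adjusted p = 0.444 by edgeR and 0.0147 by DESeq2). It called *Dpp10*, an accessory protein of Kv4 channels, lower in OF1 than in C57 mice averaged over the genotypes (log2 fold change -0.71, SE 0.186; adjusted p = 0.0975 by edgeR and 0.0217 by DESeq2). Each was the 1 of 29 partners that DESeq2 called there, where it called 1.12% and 3.62% of all genes. Whether these calls hold without SW22, C572S or C572 was not tested. *Lrrc55*, a gamma subunit of BK channels, was at 1956 in SW22 and 3300 in C572S, and *Drd2*, the D2 autoreceptor, at 1191 and 1599, with at most 1490 and 475 elsewhere. *Slc12a5*, *Dpp10*, *Lrrc55* and *Drd2* were chosen after their values were seen.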

How the data were processed

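RNA of 12 laser-dissected SNpc samples was amplified with a SMART-Seq v4 kit and sequenced without strand marking by the authors, who quantified GENCODE GRCm39 transcripts with Salmon. The deposited values per transcript are estimated counts of reads, and TPM scaled by the authors within each library. Here both were summed per gene (99.1% of transcripts matched), counts were rounded, and the 18017 genes averaging 10 or more normalized counts were tested over all 12 libraries with edgeR 4.0.16 (TMM, quasi-likelihood, Benjamini-Hochberg, threshold 0.05). DESeq2 1.42.0, other normalizations and filters and leaving out libraries were alternatives. Scripts were tested on simulated data. The members and lists were chosen with earlier results of these data known. Genes named are those with the 4 smallest p in a comparison, the 20 highest TPM, calls by either tool, those highest with *Slc6a3*, the extreme correlations (log2 of count + 1, 100000 permutations, two-sided) and textbook dopaminergic channels. Genes lowest with *Slc6a3* or peaking in 1 library were chosen after their values were seen. Salmon's split of reads between transcripts is an estimate. Replicates differed beyond sampling noise (chi-square per degree of freedom 30.7 to 576). Some genes and a sequence are not reported here.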

Additional observations from a re-analysis of the deposited data

How the results depend on the processing

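No paired analysis was possible because the labels carry no replicate number shared between groups. Of the values of single genes in 1 comparison, 530 kept their direction and side of the threshold under an alternative, 27 passed it newly, 4 lost it, and 3 reversed. Those 3 were the log2 fold change of *Kcnd3* for genotype in C57, which was 0.4554 by edgeR and 0.4969 by DESeq2 without SW22 and C572S, and ran from -1.6664 to 0.4929 (without C572S) when 1 library was left out. EdgeR called 0 Kcn genes in every comparison except the strains averaged (1), where it called 0 without SW22 and C572S. DESeq2 called 1 gene for genotype in C57, 1 between WT strains, 2 between En1+/- strains, 3 for the strains averaged and 2 for the genotypes averaged. Without SW22 and C572S, an alternative for DESeq2 chosen after seeing the data, it called 2 for genotype in OF1 (*Kcna5*, *Kcnh1*), 1 between WT strains, 1 between En1+/- strains (*Kcnh1*), 2 for strain and 5 for genotype (*Kcna3*, *Kcna5*, *Kcnab3*, *Kcnk6*, *Kcnt1*). Without C572, likewise chosen after seeing the data, it called 1 between WT strains, 3 between En1+/- strains (*Kcnh6*, *Kcnj10*, *Kcnma1*), 4 for strain and 1 for genotype. The causes were not tested. The median log2 fold change for genotype in C57 was 0.0432 by edgeR and 0.0768 by DESeq2 without SW22 and C572S. When 1 library was left out, edgeR called 0 to 1 genes between WT strains and 0 to 2 for the strains averaged (2 without SW7, *Kcnab3* being the added gene). *Kcnj10* between WT strains was called without SWB, C572 or C575 (adjusted p = 0.0483, 0.0288 and 0.0379, edgeR). The medians ran from -0.142 to 0.0717 for genotype in OF1, from 0.0328 to 0.2672 in C57, from -0.3079 to -0.0601 between En1+/- strains and from 0.1054 to 0.397 for the interaction. With 3 mice a group, an exact permutation test cannot go below p = 0.10, and genes with few reads, such as *Kcne2*, have wide errors.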
